A study of Mus musculus with 6 samples.

Results

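The genes described here are 62 collagen, laminin and integrin genes and their partners in the extracellular matrix of the embryonic mouse midgut. They are 34 collagens, 7 laminin chains, 15 integrin chains with a numbered name, and 6 matrix glycoproteins and small proteoglycans (*Fn1*, *Nid1*, *Nid2*, *Sparc*, *Lum* and *Dcn*). They were chosen by gene symbol alone, among 13840 genes that a probe of the array names with a single symbol, and 63 probes represent them. RNA came from the distal part of the midgut at E13.5, taken from *Id2*+/+ embryos and from *Id2*-/- embryos described as their littermates, with 3 samples per genotype and 1 single-color array per sample. *Id2* encodes a helix-loop-helix protein that cannot bind DNA itself and holds back E-proteins, the factors that bind E-box motifs. The labels call the mutants knockouts without limiting the loss to a tissue, and the mice were on an inbred background or on a mixed one with NMRI, without a statement of which of these the arrays used. The probe for *Id2* was not analysed here, so the labels have no check from the targeted gene. Whether each sample was 1 embryo or a pool is given nowhere, so every p-value refers to variation among these samples, which may be technical, and 3 arrays per genotype limit the precision.

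Collagens fall into fibril-forming types, which give the mesenchyme its tensile strength, and network-forming types such as type IV, which together with laminins and nidogens build the basement membrane under epithelia and around vessels, muscle and nerve. Laminins are trimers of an alpha, a beta and a gamma chain. Integrins are the alpha-beta receptors through which cells hold on to these proteins. In the embryonic gut the fibrillar collagens, fibronectin and small leucine-rich proteoglycans are made mainly by the mesenchyme, whereas the basement membrane between mesenchyme and endoderm takes chains from both layers.

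Each array carried 33012 probes. The values are signals that the authors divided by the array's median, given below as log2, and a probe is called above background where the signal-to-noise value of the scanner software was at least 3, as it was for 13891 to 16543 probes per array. Testing was limited to the 12741 probes that carried no flag on any of the 6 arrays and were above background throughout at least 1 genotype. Arrays carry the numbers 1 to 3 within each genotype, and the arrays numbered 1 stood apart: they correlated with each other at 0.984 and with the remaining arrays at 0.909 to 0.931, whereas the remaining arrays correlated among themselves at 0.979 to 0.988. Results are therefore also given by array number. The sample is whole tissue, so fewer cells of a type and less RNA per cell cannot be told apart. Levels are compared between arrays and never between genes, since each probe has its own brightness.

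Collagens, laminins and glycoproteins were detected in similar numbers on every array, and 32 of the 62 genes gave a signal that could be tested. Of the 34 collagens, 20, 20 and 20 were above background on the *Id2*+/+ arrays numbered 1, 2 and 3, and 22, 21 and 22 on the *Id2*-/- arrays. Of the 7 laminin chains the same number, 4, was above background on each array, and all 6 glycoproteins and proteoglycans were above background on every array. The integrins differed by array number and not by genotype: 7 of 15 were above background on the array numbered 1 of each genotype, and 3 on each of the other 4 arrays. In all, 30 of the 63 probes were above background on all 6 arrays, 14 on 1 to 5 arrays and 19 on none. The plot of genes above background by array shows these counts.

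**Figure D1:**
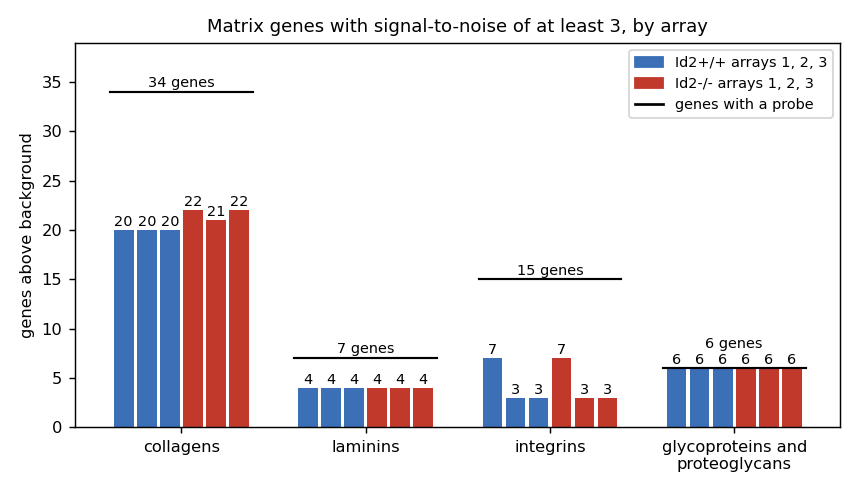
Number of matrix genes with a signal-to-noise value of at least 3 (vertical axis) on each array, by family, with *Id2*+/+ arrays 1, 2 and 3 in blue, *Id2*-/- arrays 1, 2 and 3 in red and a line at the number of genes with a probe. Collagens number 20 to 22 of 34 on each array, whereas integrins number 7 of 15 on the arrays numbered 1 and 3 of 15 on the others.

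Several of the genes above background on no array are known for restricted sites of expression. They include the collagens of epidermal anchoring structures (*Col7a1*, *Col17a1*), of cartilage and its hypertrophic zone (*Col9a1*, *Col9a2*, *Col10a1*). The other collagens among them were *Col13a1*, *Col19a1*, *Col25a1*, *Col4a4* and *Col6a6*. *Col25a1* was also the only one of these genes with a flagged spot, on the *Id2*+/+ array numbered 1. For *Col13a1*, a transmembrane collagen, the signal-to-noise values were 1.17 to 2.35, at log2 signals of 2.20 to 2.76. The laminin chains *Lama1*, *Lama2* and *Lamc3* and the integrins *Itga2*, *Itga7*, *Itga11*, *Itgb2*, *Itgb4* and *Itgb6* were above background on no array either. Signals below background say only that these probes did not stand out from the noise. *Col6a3*, *Col12a1*, *Lama3*, *Lama5*, *Lamc1*, *Itga1*, *Itga10*, *Itgb3* and *Itgb8* were not analysed here.

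Of the 62 genes, 32 had a tested probe: 20 collagens, 4 laminin chains, 2 integrins and all 6 glycoproteins and proteoglycans. The log2 difference, *Id2*-/- minus *Id2*+/+, was above 0 for 25 of them and below 0 for 7, with a median of 0.17 and a range from -0.42 to 1.64. Over all tested probes 60.4% were above 0, against 78.1% of the matrix genes, and the median was 0.04. *Col4a3* and *Col8a1*, both above 0, met the test filter through *Id2*-/- alone. Over the 30 matrix genes above background on all 6 arrays the median was 0.16. The median of the 20 collagens was 0.17 with 17 above 0, that of the 4 laminin chains 0.25 with 3 above 0, that of the 2 integrins 0.23 with both above 0, and that of the 6 glycoproteins and proteoglycans 0.04 with 3 above 0. The lean toward higher values was largest between the arrays numbered 1. The median over the 32 genes was 0.52 between the arrays numbered 1, 0.06 between those numbered 2 and -0.16 between those numbered 3, and over all tested probes 0.35, -0.04 and -0.19. Without the *Id2*+/+ array numbered 1 the median of the 32 genes was -0.06, with 14 above and 18 below 0, while that of all tested probes was -0.04 with 45.3% above 0. On the arrays numbered 2 and 3 alone the median was -0.06 for the matrix genes and -0.11 for all tested probes. Without the *Id2*-/- array numbered 1 the 2 medians were 0.19 and -0.01, and with quantile normalization of all arrays 0.15 and 0.01.

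None of the 32 genes passed limma with Benjamini-Hochberg adjustment at 0.05 over all tested probes, in either direction, and 0 of all tested probes did (0% higher and 0% lower). At an unadjusted limma p under 0.05 stood 234 of all tested probes and 1 matrix gene, *Lamb3*. With the array number as a block in limma, which pairs the arrays of equal number, 135 probes passed as higher, which is 1.06% of those tested, and 143 as lower, which is 1.12%. The only matrix gene among them was again *Lamb3*, as higher. That fit gave every probe the same SE, 0.27, so its p-values do not reflect how far a gene's own 3 differences lie apart. With quantile normalization added to the block 0 probes passed, and 944 had an unadjusted p under 0.05. The plot of differences by gene shows how widely the 3 same-numbered differences of a gene lie around its mean.

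**Figure D2:**
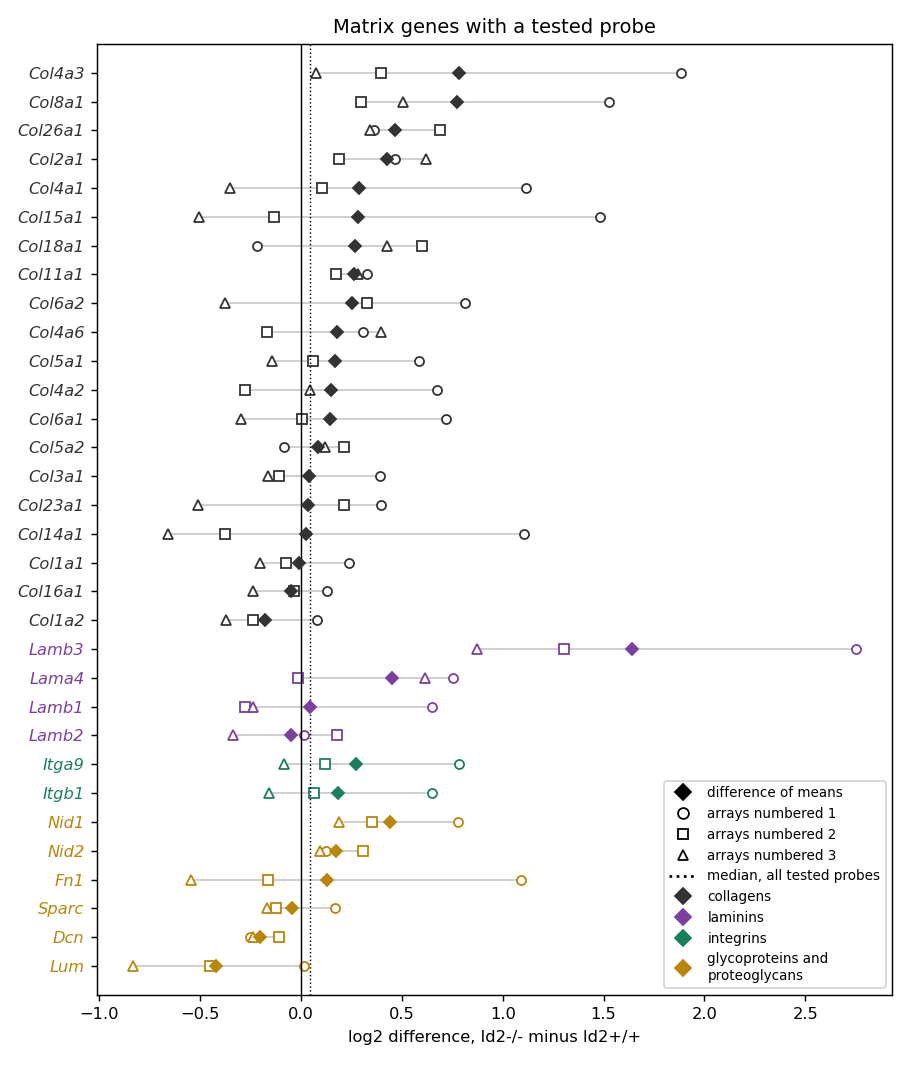
Log2 difference in signal, *Id2*-/- minus *Id2*+/+ (horizontal axis), for each of the 32 matrix genes with a tested probe, with a diamond for the difference of the means of 3 arrays and an open circle, square or triangle for the difference between the arrays numbered 1, 2 or 3; the dotted line marks the median of all tested probes, 0.04. *Lamb3* lies farthest to the right at 1.64, and circles lie to the right of squares and triangles for most collagens.

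For 3 of the 32 genes, *Lamb3*, *Nid1* and *Col11a1*, all *Id2*-/- arrays lay above all *Id2*+/+ arrays, and for none did they all lie below. Over all tested probes 2.73% did not overlap in the higher direction and 1.29% in the lower direction. Without the *Id2*+/+ array numbered 1 the counts were 5 higher and 8 lower of the 32 genes, with 7.41% and 23.3% of all tested probes. With quantile normalization *Lamb3*, *Nid1* and *Col5a1* lay higher without overlap and *Lum* lower, against 2.47% and 2.02% of all tested probes. Same-numbered arrays differed in the same direction in all 3 pairs for 8 genes as higher (*Col2a1*, *Col4a3*, *Col8a1*, *Col11a1*, *Col26a1*, *Lamb3*, *Nid1* and *Nid2*) and for 1 as lower (*Dcn*), against 11.8% and 5.64% of all tested probes. Of these, *Col4a3* and *Col8a1* were tested only because they passed background throughout *Id2*-/-, the genotype where they were higher. With 3 arrays a side, the smallest two-sided p of an exact permutation test is 0.1, so non-overlap is given as a description.

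Since *Id2* acts through factors that bind E-boxes, the 250 bases before a transcript start of the RefSeq promoter set are shown for the 3 genes whose groups did not overlap, on GRCm38.p6, 5′ to 3′ on the gene's strand. All 3 lie on the plus strand, *Lamb3* at chr1:193301744-193301993, *Nid1* at chr13:13437352-13437601 and *Col11a1* at chr3:114030290-114030478. The *Lamb3* window lies within the annotated gene, which runs from 193294353 to 193343878, before the first of 2 starts that the set gives for it. The last 61 bases of the *Col11a1* window lie within its annotated gene and are counted but not shown. Capitals mark each match to the E-box CANNTG, which reads alike on both strands.
Lamb3: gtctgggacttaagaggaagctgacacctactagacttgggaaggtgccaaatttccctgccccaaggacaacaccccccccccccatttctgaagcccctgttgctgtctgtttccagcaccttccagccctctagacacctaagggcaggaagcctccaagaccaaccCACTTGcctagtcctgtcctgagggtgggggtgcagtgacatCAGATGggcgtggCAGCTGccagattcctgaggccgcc
Nid1: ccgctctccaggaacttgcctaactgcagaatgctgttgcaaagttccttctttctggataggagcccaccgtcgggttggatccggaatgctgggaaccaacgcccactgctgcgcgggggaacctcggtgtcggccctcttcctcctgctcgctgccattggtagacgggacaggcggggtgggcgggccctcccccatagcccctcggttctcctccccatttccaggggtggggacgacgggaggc
Col11a1: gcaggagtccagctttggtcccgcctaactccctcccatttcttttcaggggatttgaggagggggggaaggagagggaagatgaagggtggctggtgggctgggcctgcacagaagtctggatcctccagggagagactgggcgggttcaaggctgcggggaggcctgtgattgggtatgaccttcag
The *Lamb3* window holds 3 matches, and the *Nid1* and *Col11a1* windows hold 0. Among the 32851 windows of this length in RefSeq, 66.2% hold at least 1 match, 12.2% hold at least 3 and 33.8% hold 0, with a median of 1. A match is a description of these letters and not of a bound site.

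*Lamb3*, a beta chain of the laminin that anchors epithelial cells at hemidesmosomes, had log2 signals of 0.10, 1.89 and 2.28 on the *Id2*+/+ arrays numbered 1, 2 and 3 and of 2.85, 3.20 and 3.15 on the *Id2*-/- arrays. All 3 *Id2*-/- arrays were higher than every *Id2*+/+ array, and the *Id2*+/+ array numbered 1 was the lowest by far. The means were 1.42 ± 1.16 and 3.07 ± 0.19 (SD, n = 3), a difference of 1.64 (SE 0.55) or 3.12-fold, with an adjusted p of 1.0 in limma and an unadjusted limma p of 0.0193. The 3 same-numbered differences were 2.75, 1.30 and 0.87, all above 0, and the limma fit with the block gave an adjusted p of 6.58e-07 (SE 0.27, which the block fit shared among all probes). That p therefore does not reflect the spread of the 3 *Lamb3* differences. With quantile normalization added to the block the difference was 1.58 and the limma adjusted p 0.457. Leaving out each array in turn gave differences from 0.98, without the *Id2*+/+ array numbered 1, to 2.07. Markers of epithelium lay on the other side of 0: all 13 tested markers of the 18 listed had a difference below 0, with a median of -0.28. The summed signal of the 17 with a probe was 562 to 1622 times the array median in *Id2*+/+ and 804 to 944 in *Id2*-/-. Summed signals here and below take in all listed markers with a probe, tested or not. By array number the median marker difference was 0.48, -0.49 and -0.83. The markers and *Lamb3* were both higher in *Id2*-/- between the arrays numbered 1 and went opposite ways in the other pairs. The part of epithelial cells in the *Lamb3* values was not tested. The known partners of *Lamb3* gave no parallel reading, since *Itgb4*, the beta chain of the hemidesmosome integrin, was above background on no array (highest signal-to-noise value 2.99), and *Itga6*, its alpha chain, was above background on 2 arrays of each genotype, with log2 signals of 0.98, 1.97 and 0.40 in *Id2*+/+ and 1.89, 0.29 and 1.14 in *Id2*-/-.

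**Figure D3:**
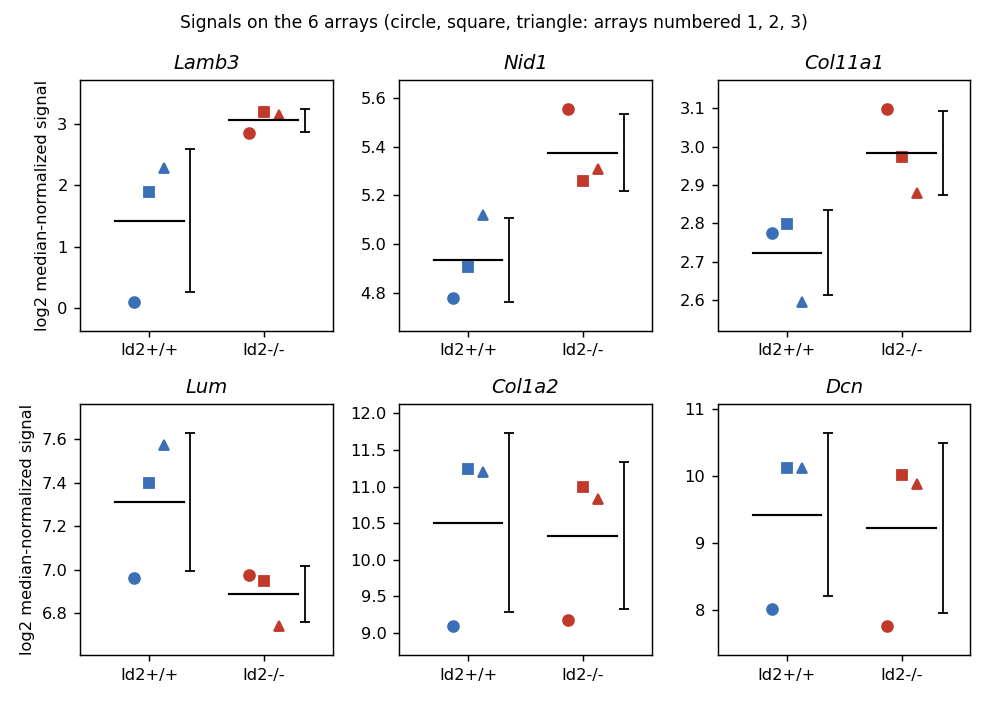
Log2 median-normalized signal (vertical axes, a separate scale per gene) of 6 matrix genes on the *Id2*+/+ arrays (blue) and *Id2*-/- arrays (red), with circles, squares and triangles for the arrays numbered 1, 2 and 3, horizontal lines at the means and error bars of 1 SD (n = 3). All *Id2*-/- points lie above all *Id2*+/+ points for *Lamb3*, *Nid1* and *Col11a1*, and for *Col1a2* and *Dcn* the array numbered 1 lies about 2 log2 units below the others in both genotypes.

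The other laminin chains differed less between the genotypes. *Lama4*, an alpha chain of vascular and muscle basement membranes, had log2 signals of 0.55, 1.07 and 0.69 in *Id2*+/+ and 1.30, 1.06 and 1.30 in *Id2*-/-. Its *Id2*-/- arrays were higher except for the one numbered 2, which lay just under the highest *Id2*+/+ array, and the difference of 0.45 (SE 0.25) did not pass the test. *Lamb1*, the common beta chain of embryonic laminins, had signals of 6.20, 7.05 and 6.85 in *Id2*+/+ and 6.85, 6.77 and 6.61 in *Id2*-/-, and the groups overlapped throughout. *Lamb2*, the beta chain of mature and synaptic basement membranes, differed by -0.05 (SE 0.30) and also overlapped.

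*Nid1* and *Nid2* encode the nidogens, which link laminin to type IV collagen. The log2 signals of *Nid1* were 4.78, 4.91 and 5.12 in *Id2*+/+ and 5.56, 5.26 and 5.31 in *Id2*-/-. Every *Id2*-/- array was above every *Id2*+/+ array, by a difference of means of 0.44 (SE 0.24, limma adjusted p 1.0), and the same-numbered differences were 0.78, 0.35 and 0.19. The difference of *Nid1* stayed between 0.35 and 0.53 when each array was left out in turn. *Nid2* was at 7.20, 7.90 and 7.87 in *Id2*+/+ and 7.32, 8.21 and 7.96 in *Id2*-/-, with the lowest value of each genotype on the array numbered 1. Its 3 same-numbered differences were all above 0, at 0.12, 0.31 and 0.09, but the groups overlapped. With quantile normalization *Nid2* was no longer higher in every pair.

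The 2 small leucine-rich proteoglycans, which bind collagen fibrils and limit their thickness, had the lowest differences among the 32 genes. *Lum* (lumican) had log2 signals of 6.96, 7.40 and 7.57 in *Id2*+/+ and 6.97, 6.95 and 6.74 in *Id2*-/-. The *Id2*-/- arrays numbered 2 and 3 lay under all *Id2*+/+ arrays, while the arrays numbered 1 differed by 0.01. The difference of means was -0.42 (SE 0.26, limma adjusted p 1.0) and ran from -0.60 to -0.29 when each array was left out. *Dcn* (decorin) had signals of 8.01, 10.13 and 10.13 in *Id2*+/+ and 7.76, 10.02 and 9.89 in *Id2*-/-. It was lower in *Id2*-/- in each same-numbered pair, with differences of -0.25, -0.11 and -0.24, much smaller than the step between the array numbered 1 and the others. *Dcn* and *Lum* lie on chromosome 10, separated by 47337 bases on GRCm38.p6.

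Fibronectin and *Sparc* showed no shift beyond the spread of the arrays. *Fn1*, which encodes the fibronectin that cells bind through integrins, had log2 signals of 5.41, 6.36 and 6.53 in *Id2*+/+ and 6.50, 6.20 and 5.99 in *Id2*-/-. The groups overlapped and the same-numbered differences changed sign, from 1.09 between the arrays numbered 1 to -0.54 between those numbered 3. *Sparc*, a collagen-binding matricellular protein, differed by -0.04 (SE 0.33), with signals of 8.97, 9.88 and 9.72 in *Id2*+/+ and 9.14, 9.75 and 9.55 in *Id2*-/-.

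Among the fibril-forming collagens, the chains of types I, III and V were nearly level between the genotypes. *Col1a1* had log2 signals of 7.85, 8.72 and 8.69 in *Id2*+/+ and 8.09, 8.65 and 8.48 in *Id2*-/-, a difference of -0.01 (SE 0.32). *Col1a2*, the other chain of type I collagen, was at 9.09, 11.23 and 11.19 in *Id2*+/+ and 9.17, 10.995 and 10.82 in *Id2*-/-, a difference of -0.18 (SE 0.71). Both chains were lowest on the array numbered 1 of each genotype, and the drop there was larger for *Col1a2* than for *Col1a1*. *Col3a1*, the chain of the type III collagen that accompanies type I in soft tissue, differed by 0.04 (SE 0.32). *Col5a1* and *Col5a2*, chains of the type V collagen that starts fibrils, differed by 0.17 (SE 0.25) and 0.08 (SE 0.35). On the arrays numbered 2 and 3 alone, *Col1a1*, *Col1a2* and *Col3a1* were each lower in *Id2*-/- without overlap and *Col5a2* higher, in a comparison in which 37.3% of all tested probes were lower and 10.7% higher without overlap.

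*Col11a1*, a minor chain that sits within fibrils and is best known from cartilage, had log2 signals of 2.77, 2.80 and 2.60 in *Id2*+/+ and 3.10, 2.97 and 2.88 in *Id2*-/-. The groups did not overlap but lay close together, with a difference of 0.26 (SE 0.22, limma adjusted p 1.0) and same-numbered differences of 0.33, 0.17 and 0.28, and with quantile normalization they overlapped. *Col2a1*, the main collagen of cartilage, was at 0.90, 2.75 and 3.01 in *Id2*+/+ and 1.36, 2.94 and 3.64 in *Id2*-/-. It was higher in *Id2*-/- in each same-numbered pair, by 0.47, 0.19 and 0.62, but the groups overlapped widely, since the array numbered 1 was far below the others in both genotypes. Among the markers of cartilage and bone 1 of 13 was tested, and *Comp*, *Matn1*, *Ibsp* and *Sp7* were above background on no array. The summed signal of the 11 with a probe, most of them untested, was 8.26 to 12.99 in *Id2*+/+ and 9.73 to 17.3 in *Id2*-/-. The part of these cells in the values of *Col2a1* and *Col11a1* was not tested.

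None of the basement membrane collagens passed the test. *Col4a1*, a chain of the type IV network present in all basement membranes, had log2 signals of 5.68, 6.66 and 6.90 in *Id2*+/+ and 6.80, 6.76 and 6.55 in *Id2*-/-. Its same-numbered differences went from 1.11 to 0.11 and -0.35, and the difference of means was 0.29 (SE 0.35). *Col4a2*, its partner chain, was at 4.41, 4.43 and 4.37 in *Id2*+/+ and 5.09, 4.15 and 4.41 in *Id2*-/-, with same-numbered differences of 0.67, -0.28 and 0.04. The 2 genes start head to head on chromosome 8, where their annotated bodies overlap by 85 bases on GRCm38.p6. *Col4a3*, a chain of specialized basement membranes such as that of the glomerulus, was at -0.87, 0.15 and 0.67 in *Id2*+/+ and 1.01, 0.54 and 0.74 in *Id2*-/-. Its signal passed background on 2 arrays of *Id2*+/+ and 3 of *Id2*-/-, and the difference of 0.78 (SE 0.41) rested largely on the arrays numbered 1, which differed by 1.88, while the other pairs differed by 0.39 and 0.08. With the array number as a block its unadjusted limma p was 0.004 and its adjusted p 0.138. That fit used an SE of 0.27 shared among all probes, not the spread of the 3 *Col4a3* differences. In it 879 of the 12741 tested probes had an unadjusted limma p under 0.05. *Col4a3* met the test filter through *Id2*-/- alone, the genotype where it was higher. *Col4a4*, which lies head to head with *Col4a3* on chromosome 1 and overlaps it by 114 bases, was above background on no array. *Col4a6*, a chain of smooth muscle basement membranes, differed by 0.18 (SE 0.24), with same-numbered differences of 0.31, -0.17 and 0.40, and its neighbor on chromosome X, *Col4a5*, was above background on 3 of 6 arrays and not tested.

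*Col15a1* and *Col18a1* encode the collagens that lie at the outer face of basement membranes and carry the anti-angiogenic fragments at their ends. *Col15a1* had log2 signals of 2.32, 4.82 and 4.72 in *Id2*+/+ and 3.797, 4.69 and 4.21 in *Id2*-/-, with the array numbered 1 lowest in both genotypes, and a difference of 0.28 (SE 0.67). *Col18a1* went the other way by array number, at 6.15, 4.82 and 4.92 in *Id2*+/+ and 5.93, 5.42 and 5.34 in *Id2*-/-. On the arrays numbered 2 and 3 it was higher in *Id2*-/- by 0.60 and 0.42, while the arrays numbered 1 differed by -0.22. Endothelial markers, of which 10 of 14 were tested and 9 were above 0 with a median of 0.38, had a summed signal of 92.6 to 149 in *Id2*+/+ and 135 to 189 in *Id2*-/-. By array number their median difference was 1.06, 0.22 and -0.13, and that of all tested probes 0.35, -0.04 and -0.19. The part of endothelial cells in the differences of the type IV and vascular chains was not tested.

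Of the remaining tested collagens, *Col8a1* and *Col26a1* had the larger differences. *Col8a1*, a short-chain collagen made by vascular cells, was above background on all 3 *Id2*-/- arrays, at -0.67, 0.01 and -0.21, and on no *Id2*+/+ array, where its signals were -2.20, -0.28 and -0.72. By the rule for dim probes it was at least 1.71-fold higher in *Id2*-/- (limma adjusted p 1.0), but this is the plain ratio to its own dim signals and no strict lower limit. The groups overlapped, and without the *Id2*+/+ array numbered 1 the log2 difference fell from 0.78 to 0.21. In the block fit its unadjusted limma p was 0.005 and its adjusted p 0.149. These too rest on the SE shared among all probes, and 879 of the 12741 tested probes had an unadjusted limma p under 0.05 there. *Col8a1* was tested only through *Id2*-/-, the genotype where it was higher. *Col26a1* was at 4.18, 3.59 and 3.58 in *Id2*+/+ and 4.54, 4.28 and 3.92 in *Id2*-/-. Each *Id2*-/- array exceeded its same-numbered *Id2*+/+ array, by 0.36, 0.69 and 0.34, with a difference of means of 0.46 (SE 0.29), but the groups overlapped. With quantile normalization *Col26a1* was no longer higher in every pair.

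*Col6a1* and *Col6a2*, chains of the beaded microfibrils that surround mesenchymal cells, differed by 0.14 (SE 0.45) and 0.25 (SE 0.28). *Col14a1* and *Col16a1*, which bind to the surface of fibrils and bridge them to other proteins, differed by 0.02 (SE 0.56) and -0.05 (SE 0.23). *Col14a1* showed the array effect clearly, with log2 signals of 6.15, 8.10 and 8.30 in *Id2*+/+ and 7.25, 7.72 and 7.65 in *Id2*-/-. The only gene with several probes was *Col23a1*, a transmembrane collagen: its tested probe differed by 0.03 (SE 0.32), and its other probe was above background on the arrays numbered 1 alone, at 2.21 in *Id2*+/+ and 2.11 in *Id2*-/- against -1.49 to -0.42 on the other 4 arrays. *Col5a3*, another chain of type V collagen, *Col9a3* and *Col11a2*, both cartilage chains, were above background on 2 arrays each and were not tested.

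Only *Itgb1* and *Itga9* among the 15 integrins could be tested. *Itgb1*, the beta chain shared by most matrix receptors, had log2 signals of 7.04, 7.52 and 7.73 in *Id2*+/+ and 7.69, 7.59 and 7.57 in *Id2*-/-, a difference of 0.18 (SE 0.26). *Itga9*, the alpha chain of a receptor for tenascin, was at 4.59, 5.66 and 5.75 in *Id2*+/+ and 5.37, 5.78 and 5.66 in *Id2*-/-, a difference of 0.27 (SE 0.36). For both genes the *Id2*+/+ array numbered 1 was the lowest of all 6, and the remaining arrays lay close together.

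The 3 untested integrins with the highest signal-to-noise values on any array were each highest on the array numbered 1 of both genotypes. *Itga8*, the alpha chain of the receptor for nephronectin on mesenchymal cells, had signals of 2.25 in *Id2*+/+ and 2.004 in *Id2*-/- on the arrays numbered 1, and between -1.59 and -0.66 on the other 4. *Itga5*, the alpha chain of the classical fibronectin receptor, was also above background on the arrays numbered 1 alone, at 2.54 and 3.09, with 0.82 to 1.63 on the others. *Itgb5*, the beta chain of a vitronectin receptor, was at 2.36, -1.45 and 1.12 in *Id2*+/+ and 2.60, -0.54 and 0.07 in *Id2*-/-. In each of these 3 genes the array numbered 1 was the highest of its genotype, by more than the genotypes differed on that array. *Itga3*, *Itga4* and *Itgb7* were each above background on 1 array only.

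Several matrix genes differed more by array number than by genotype. Over the 32 tested genes, the signal on the array numbered 1 minus the mean of the arrays numbered 2 and 3 had a median of -0.72 in *Id2*+/+ and 0.12 in *Id2*-/-, against -0.28 and 0.12 over all tested probes. *Col1a2*, *Col2a1* and *Dcn* were lower on the array numbered 1 by at least 1 log2 unit in both genotypes. The step was -2.12 in *Id2*+/+ and -1.74 in *Id2*-/- for *Col1a2*, -1.99 and -1.93 for *Col2a1*, and -2.11 and -2.19 for *Dcn*. These are 9.38% of the 32 genes, and 3.34% of all tested probes did the same. No tested matrix gene was higher there by at least 1 log2 unit in both genotypes, against 9.002% of all tested probes. *Lamb3*, *Col14a1* and *Col15a1* were low on the array numbered 1 mainly in *Id2*+/+, at -1.99, -2.06 and -2.45 against -0.32, -0.43 and -0.65 in *Id2*-/-. The summed signal of mesenchyme markers was 1169 on the *Id2*+/+ array numbered 1 and 1752 to 1831 on the other *Id2*+/+ arrays, and 1495 to 1810 in *Id2*-/-. That of smooth muscle markers was 779 there, 1704 and 2204 on the other *Id2*+/+ arrays, and 1259 to 1507 in *Id2*-/-. Their part in the low matrix signals of that array was not tested.

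**Figure D4:**
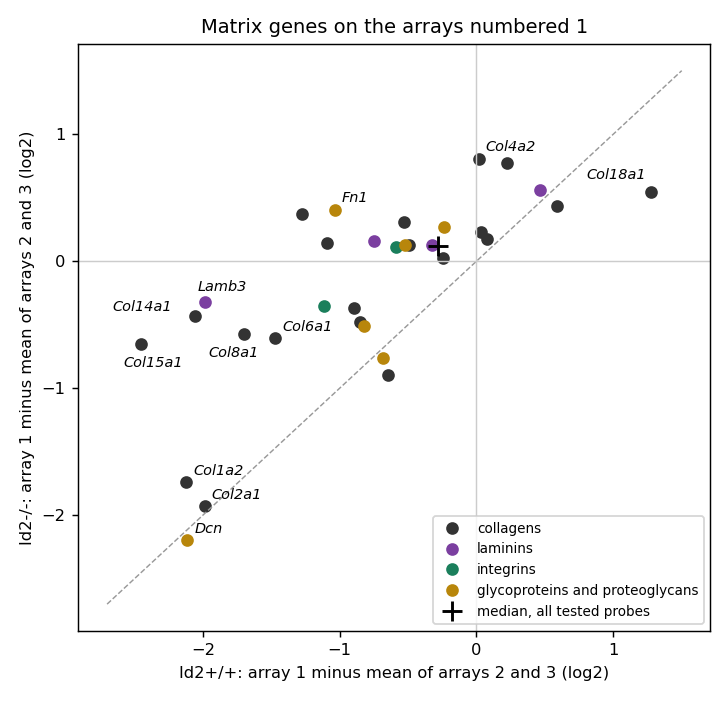
Log2 signal on the array numbered 1 minus the mean of the arrays numbered 2 and 3, in *Id2*+/+ (horizontal axis) and *Id2*-/- (vertical axis), with 1 point per tested matrix gene, colored by family, a plus for the median of all tested probes (-0.28 and 0.12) and a dashed line of equality. *Col1a2*, *Col2a1* and *Dcn* lie low in both genotypes near the line, whereas *Lamb3*, *Col14a1* and *Col15a1* lie low mainly in *Id2*+/+.

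Other genes of the matrix were read from 7 lists of 156 genes, 78 of which were tested. None passed limma without the block, and 49 differences were above 0 and 29 below, with a median of 0.09. Over all tested probes 60.4% were above 0, with a median of 0.04. With the array number as a block 2 passed as higher and 1 as lower, against 1.06% and 1.12% of all tested probes. These calls too rest on the SE that the block fit shared among all probes. The proteoglycan *Epyc* (epiphycan), a relative of *Lum* and *Dcn*, had the lowest difference of these lists, -1.47, with log2 signals of 3.23, 5.32 and 5.38 in *Id2*+/+ and 2.85, 3.64 and 3.03 in *Id2*-/-, and it passed as lower. The genes that passed as higher were *Sdc1* (syndecan), a transmembrane proteoglycan, and *Smoc2*, a matricellular protein that is named here after its values were seen. *Sdc1* had log2 signals of 3.81, -0.86 and -0.67 in *Id2*+/+ and 4.50, 0.97 and 0.43 in *Id2*-/-, with same-numbered differences of 0.68, 1.83 and 1.10. *Smoc2* had signals of 4.86, 0.39 and 0.89 in *Id2*+/+ and 4.83, 2.19 and 2.06 in *Id2*-/-, with differences of -0.03, 1.80 and 1.17. Both genes were highest on the array numbered 1 of each genotype, and the groups of both overlapped.

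By list, the 12 tested matrix proteoglycans had 4 differences above 0 and 8 below with a median of -0.07, and *Ogn* (osteoglycin) was lower without overlap. Collagen-processing enzymes, which hydroxylate, fold and crosslink collagen, were split evenly, 8 above and 8 below, with a median of -0.03. Elastic fiber genes were 9 above and 2 below (median 0.18), with *Mfap2*, a microfibril component, higher without overlap. Matricellular genes were 6 above and 7 below (median -0.01), matrix proteases and inhibitors 7 above and 2 below (median 0.17), and other basement membrane genes 6 above and 2 below (median 0.17), with *Fras1*, which holds embryonic epithelia to the mesenchyme, lower without overlap. Among the proteases *Mmp23* had log2 signals of 1.002, 1.25 and 1.25 in *Id2*+/+ and 0.40, 0.35 and 0.24 in *Id2*-/-, lower without overlap (difference -0.83, limma adjusted p 1.0). Over the 78 tested genes of the 7 lists, 1 was higher and 3 were lower without overlap, against 2.73% and 1.29% of all tested probes. All 10 tested genes of the adhesion complex, the proteins that tie integrins to actin, were above 0, with a median of 0.14 and a range of 0.07 to 0.24. Their medians by array number were 0.53, 0.11 and -0.20 and those of all tested probes 0.35, -0.04 and -0.19.

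Markers of the cell types that make matrix were set beside these results. Mesenchyme markers (8 of 14 tested; *Dpt*, *Prrx1* and *Thy1* above background on no array) were 4 above and 4 below 0 with a median of 0.02. Smooth muscle markers (9 of 12 tested) were 7 above and 2 below with a median of 0.16, close to that of the collagens. By array number the smooth muscle median was 0.71, 0.04 and -0.39. The midgut factor *Cdx2* was at 5.55 to 7.05 in *Id2*+/+ and 5.97 to 6.16 in *Id2*-/-, and *Cdx1* was above background on no array. Mesothelium markers had a summed signal of 71.7 to 172 in *Id2*+/+ and 71.3 to 116 in *Id2*-/-, macrophage markers of 79.0 to 104 and 79.2 to 92.1, and enteric neuron markers of 497 to 847 and 617 to 779. Striated muscle markers were at 51.0 to 141 and 61.4 to 120, with *Myod1*, *Myog*, *Ckm* and *Chrna1* above background on no array. Of the 4 tested, 1 was above 0 and 3 below, with a median of -0.57. *Myl1* (-0.69) and *Tnnt3* (-1.20) were lower without overlap, against 1.29% of all tested probes. All 5 tested red blood cell markers were above 0, with a median of 0.72 and a summed signal of 1242 to 1789 in *Id2*+/+ and 1502 to 2340 in *Id2*-/-. The part of any of these cells in the values of the matrix genes was not tested.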

How the data were processed

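Total RNA from distal midgut of 3 *Id2*+/+ and 3 *Id2*-/- samples at E13.5 was hybridized to single-color arrays of Applied Biosystems. The deposited files give the scanner's intensity per probe, a signal-to-noise score, a quality flag and the authors' median-normalized intensity, whose array constants (708.015 to 1010.43) equal the median of the unflagged spots. Spots flagged at 5000 or above were treated as bad, although the methods phrase this filter the other way round.

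Log2 of the authors' normalized value was tested with limma 3.58.1 (R 4.3.3), adjusted over all 12741 tested probes, with genotype alone in the model. Genes were named from the platform annotation, updated through RefSeq. *Col8a1*, dim in *Id2*+/+, is given as at least N-fold: each dim array counts at its own signal or at the lowest signal above background on that array, whichever is higher. Its own was higher on all 3 arrays, so the value equals the plain ratio.

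The members, gene lists and tests were chosen with earlier results of these data known. Named were the chief members of each role, other members without overlap or with an unadjusted p under 0.05 in either fit, and at most 3 genes per list by smallest p. The lists were collagen processing, proteoglycans, elastic fibers, matricellular proteins, proteases and inhibitors, adhesion complex and other basement membrane proteins, with markers of 10 cell types. After subtracting genotype means, arrays of equal number correlated at 0.838, 0.644 and 0.579, and the number was used as a pairing on that ground. Deviations from a genotype mean are tied to each other, so the step of the arrays numbered 1 alone can raise each of these values. They do not show that the other arrays belong together by number. The labels state only that embryos were littermates. Alternatives were the replicate block, quantile normalization, other filters, an offset of 0.5, a trended robust prior, the deposited series table, the methods' t-test and leaving out each array. The fits were also run on simulated data, with independent noise of the same spread for every probe and no effect of array number. The measured arrays differ in both respects, so that run does not bear on the calls of the block fit.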

Additional observations from a re-analysis of the deposited data

How the results depend on the processing

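With the replicate block, which pairs arrays of equal number, 135 probes passed as higher and 143 as lower, among them 1 matrix gene (*Lamb3*, higher, adjusted p 6.58e-07), and 3 genes of the pathway lists. These calls rest on an SE shared among all probes and not on the spread of each gene's own differences. The block changed no other call among the matrix genes, and with quantile normalization added no probe passed. The methods' t-test gave, before adjustment, 150 probes higher and 92 lower and 2 matrix genes higher (*Nid1* and *Col11a1*), and after adjustment 0. The median of the 6 glycoproteins and proteoglycans, 0.04, ran from -0.27 without the *Id2*+/+ array numbered 1 to 0.24 without the *Id2*-/- array numbered 1, and was -0.16 on the arrays numbered 2 and 3 alone, a setting chosen after seeing the data. Matrix genes without overlap, 3 higher and 0 lower on all arrays, were 4 to 7 higher and 0 to 8 lower when an array was left out (most lower without the *Id2*+/+ array numbered 1), against 4.78% to 7.41% and 1.71% to 23.3% of all tested probes. They were 8 higher (25.0%) and 10 lower (31.2%) on the arrays numbered 2 and 3 alone, against 10.7% and 37.3%, and 1 lower (*Lum*) with quantile normalization, against 2.02%. Genes lower in all 3 pairs numbered 3 (9.38%) with quantile normalization and 1 without, while the share of all tested probes was 13.2% and 5.64%. Genes higher in all 3 pairs numbered 10 (31.2%) with quantile normalization and 8 (25%) without, against 16.3% and 11.8% of all tested probes. *Col26a1* and *Nid2* were among the 8 and not among the 10. When an array was left out, the medians ran from -0.06 to 0.28 for all 32 genes, from -0.04 to 0.24 for the collagens, from 0.20 to 0.41 for the laminins and from -0.06 to 0.41 for the integrins, each lowest without the *Id2*+/+ array numbered 1 except the laminins. No difference of a tested gene among *Lamb3*, *Nid1*, *Lum*, *Col4a3*, *Col8a1*, *Col11a1* and *Col26a1* changed sign under the settings run. No fit with slide or scan as a block was made, since neither was known. Signals near background, as for *Col4a3*, *Col8a1*, *Lama4* and most integrins, limit what can be read from them.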
